A study of Homo sapiens with 12 samples.

Results

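The genes described here control proteolysis at the cell surface: the plasminogen activators PLAU and PLAT, the activator receptor PLAUR, the serpins SERPINE2 and SERPINB2, and the metalloproteinase inhibitors TIMP1, TIMP2 and TIMP3. They were chosen by name, with earlier results of these data known. Each matched 1 row of the count table by its symbol, so that they make up 8 of the table's 60234 genes. All 8 passed the filter on low counts that left 22668 genes for testing. RNA was sequenced from MDA-MB-231, a breast cancer cell line in long use that lacks the usual hormone and HER2 drivers, in 12 libraries. Fast cells, a population captured by the trajectory of its cells, gave 3 libraries in batch 1 and 3 in batch 2. Parental cells, for which no capture is labelled, gave 3 libraries in each batch as well. The labels give no other agent or genetic change for either population. The submitters call the 3 libraries of a population and batch technical replicates of 2 biological replicates, so the p-values below rest on a spread among libraries that may be no more than technical. All results come from this 1 line.

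Plasminogen is an inactive precursor of plasmin, a broad serine protease that degrades fibrin and matrix proteins and activates some matrix metalloproteinases. PLAU (urokinase) and PLAT (tissue-type activator) cut plasminogen to plasmin, and PLAUR holds PLAU at the cell surface. Serpins are suicide inhibitors that trap serine proteases, and TIMPs bind the active site of metalloproteinases. Breast cancer cells that invade often carry PLAU and PLAUR, and MDA-MB-231 is widely used as a line that does.

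Of the 8 genes, 6 were higher and 1 was lower in fast cells over both batches, and SERPINB2 was not called (edgeR's quasi-likelihood test, adjusted p under 0.05). TIMP3, TIMP2 and PLAU rose most, by 1.73-fold to 1.90-fold, and TIMP1 fell by 0.24 on the log2 scale. Over all tested genes, 31.9% were called higher and 31.5% lower, 63.4% in all, and among the 16190 genes with a mean of at least 1 CPM (counts per 1e6 reads, scaled by TMM) 75.1% were called. The count of 7 called of 8 therefore lies near the background. Where populations are said below not to overlap, the share of all tested genes that do so is not given here. Such separation is thus not shown to be particular to these genes. In batch 1 alone, 7 were higher and 1 lower, where 56.1% of all tested genes were called (29% higher, 27.1% lower). In batch 2 alone, 5 were higher and 2 lower, where 56% were called (27.4% higher, 28.6% lower). The median log2 fold change was 0.47 over the 8 genes and 0.0055 over all tested genes, and the median absolute change was 0.47 against 0.32. As the 8 genes were chosen with earlier results known, these values cannot show a shift of the gene family. PLAT, TIMP1, TIMP2 and TIMP3 were called in the same direction in both batches, PLAU and PLAUR rose in both by different amounts, SERPINE2 was called higher in batch 1 and not in batch 2, and SERPINB2 was called higher in batch 1 and lower in batch 2.

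**Figure D1:**
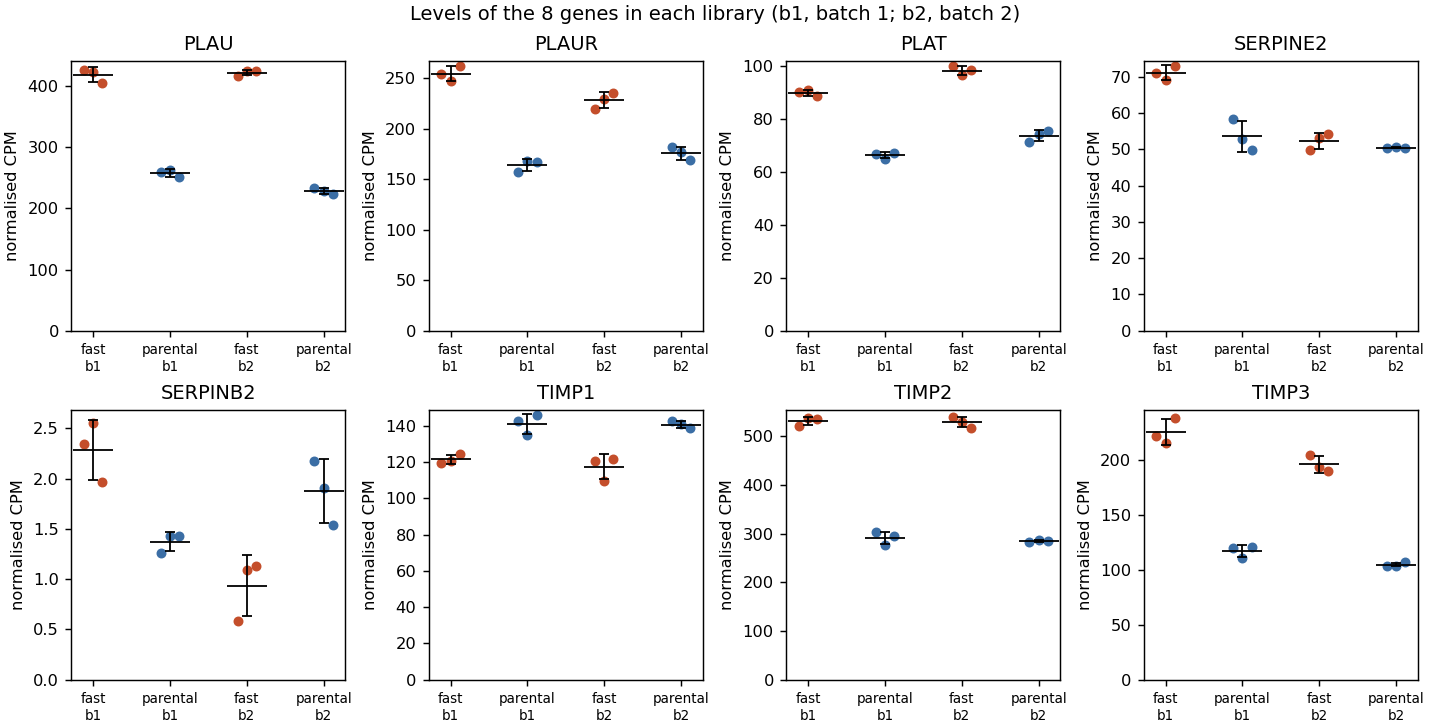
Normalised CPM (y axis, from 0) of each of the 8 genes in the 3 libraries of each population and batch (x axis). Points are libraries, wide bars are means and error bars are ± 1 SD (n = 3). Fast points of PLAU, PLAUR, PLAT, TIMP2 and TIMP3 lie above all parental points, those of TIMP1 lie below, and SERPINB2 changes its order between the batches. The share of all tested genes separated in this way is not given here.

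Total counts were 53267145 to 75944907 per library, so that 1 CPM was about 53.3 counts in the shallowest one. Every pair of libraries of a group differed by more than counting noise, with an index of dispersion of 3.41 to 8.81 where 1 is counting noise. Apart from SERPINB2, the coefficient of variation of a gene among 3 libraries of a group was 0.321% to 8.02%. Of 7 markers of the line, the mesenchymal VIM averaged 6912 CPM in fast libraries and 5050 CPM in parental libraries, and CD44 705 CPM in fast and 895 CPM in parental libraries. The epithelial keratin KRT18 was expressed too, with means of 358 CPM in fast libraries and 306 CPM in parental libraries, while no library held more than 4 counts of CDH1. The receptor genes ESR1, PGR and ERBB2 averaged 0.139, 2.05 and 59.0 CPM in fast libraries and 0.139, 0.477 and 62.4 CPM in parental libraries. VIM, KRT18 and PGR were called higher in fast cells, CD44 and ERBB2 lower. Markers of other cells were low. The summed level of 7 fibroblast markers was 9.13 to 11.8 CPM in fast and 14.1 to 16.4 CPM in parental libraries, with DCN and LUM at 0 and COL1A1 the main part of it, and that of 7 leukocyte and macrophage markers was 1.12 to 1.58 CPM in fast and 1.46 to 2.53 CPM in parental libraries, with TYROBP at 0. The 4 endothelial markers found summed to 9.33 to 12.1 CPM in fast and 7.999 to 10.5 CPM in parental libraries, nearly all of it KDR, and the 3 platelet markers to at most 0.512 CPM. In bulk RNA, fewer cells with a transcript and less of it per cell cannot be told apart, and the part of the fibroblast marker difference in the results was not tested.

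The stretches of DNA just before the starts of 5 of these genes are shown to set the genes that rose together beside the one that fell and the one that changed direction. The sequences are RefSeq's on GRCh38.p14, 250 bases before the start and read 5′ to 3′, and entries matched by symbol were used for 6 of the 8 genes. PLAT and TIMP2 are the other 2. PLAU has 2 listed starts, and the one shown is the start with the GC boxes; the window before its other start holds none of the 3 motifs and has 46.8% G and C. Capitals mark matches on either strand to the AP-1 motif TGANTCA, the GC box GGGCGG and the TATA box TATAAA, and no matches overlap one another.
PLAU promoter, chr10:73910882-73911131, plus strand: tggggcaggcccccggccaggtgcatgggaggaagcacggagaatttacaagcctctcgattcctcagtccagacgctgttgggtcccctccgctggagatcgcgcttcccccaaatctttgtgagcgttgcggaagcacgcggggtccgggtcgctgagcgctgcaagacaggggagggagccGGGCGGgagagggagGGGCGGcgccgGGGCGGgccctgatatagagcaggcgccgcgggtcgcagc
PLAUR promoter, chr19:43670170-43670419, minus strand: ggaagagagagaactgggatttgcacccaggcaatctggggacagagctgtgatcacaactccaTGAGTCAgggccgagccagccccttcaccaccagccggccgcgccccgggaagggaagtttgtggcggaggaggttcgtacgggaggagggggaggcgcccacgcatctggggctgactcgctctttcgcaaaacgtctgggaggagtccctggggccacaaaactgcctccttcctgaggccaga
SERPINB2 promoter, chr18:63887455-63887704, plus strand: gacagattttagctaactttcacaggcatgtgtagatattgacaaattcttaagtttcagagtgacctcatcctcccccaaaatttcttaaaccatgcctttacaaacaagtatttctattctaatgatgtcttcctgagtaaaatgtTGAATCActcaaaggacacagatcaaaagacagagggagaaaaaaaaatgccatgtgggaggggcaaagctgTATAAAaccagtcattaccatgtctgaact
TIMP1 promoter, chrX:47582186-47582435, plus strand: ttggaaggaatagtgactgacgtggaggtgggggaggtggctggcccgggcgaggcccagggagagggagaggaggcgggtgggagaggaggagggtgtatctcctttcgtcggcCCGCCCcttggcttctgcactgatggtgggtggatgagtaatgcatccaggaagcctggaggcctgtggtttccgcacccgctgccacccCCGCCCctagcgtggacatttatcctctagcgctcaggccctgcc
TIMP3 promoter, chr22:32801455-32801704, plus strand: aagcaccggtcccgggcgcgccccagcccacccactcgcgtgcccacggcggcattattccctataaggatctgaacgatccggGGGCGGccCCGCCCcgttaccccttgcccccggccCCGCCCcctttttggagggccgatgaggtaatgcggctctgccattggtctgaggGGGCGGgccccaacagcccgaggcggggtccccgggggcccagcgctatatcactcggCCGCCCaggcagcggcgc
The PLAUR window holds TGAGTCA 186 bases before the start and the SERPINB2 window TGAATCA 102 bases before it. Of 35116 windows of this length, 6.57% hold an AP-1 match. TATAAA was found in the SERPINB2 window, 30 bases before the start, and in 10.7% of all windows. GC boxes were found 5 times in the TIMP3 window, 3 times in that of PLAU and 2 times in that of TIMP1, and 42.6% of all windows hold at least 1. The G and C content was 37.2% before SERPINB2, against 63.2% to 72.4% in the other 4 windows shown and a median of 58.0% over all windows. SERPINE2, also called higher over both batches, is not among those shown. The windows before its 2 listed starts hold 1 and 2 GC boxes, with 53.2% and 75.2% G and C. These matches describe letters only.

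PLAU (ENSG00000122861, chromosome 10), the urokinase gene, was higher in fast cells in both batches. In batch 1 it stood at 427, 423 and 404 CPM in the fast libraries, against 259.6, 262 and 251 CPM in the parental libraries. In batch 2 it stood at 417, 425 and 424 CPM in the fast libraries, against 233, 229 and 223 CPM in the parental libraries. All 6 fast libraries lay above all 6 parental ones. The log2 fold change was 0.79 ± 0.03 SE over both batches (edgeR adjusted p = 6.21e-22), 0.70 ± 0.03 SE in batch 1 and 0.89 ± 0.03 SE in batch 2. The 2 changes differed (difference 0.19 ± 0.04 SE, edgeR adjusted p = 0.00512). Fast cells had nearly the same mean in both batches, 418 ± 12.2 CPM in batch 1 and 422 ± 4.80 CPM in batch 2, while parental cells had 258 ± 5.95 CPM in batch 1 and 228 ± 5.42 CPM in batch 2 (SD, n = 3 each). A gene on the opposite strand, C10orf55, shares 916 exon bases with PLAU. Its counts were 24.0 to 27.3 per 100 PLAU counts in the fast libraries and 25.3 to 27.8 in the parental libraries, and its log2 fold change was 0.78. The sources used here do not give whether counting used the strand, so reads of this pair cannot be told apart. Among the 20 tested genes nearest to PLAU, 19 were called higher too, their median log2 fold change being 0.54 (range 0.20 to 0.88). Overlapping genes such as C10orf55 were not left out of these 20. The part of the neighbours' rise in the change of PLAU was not tested.

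PLAT (ENSG00000104368, chromosome 8) encodes the tissue-type activator, best known for dissolving clots. Batch 1 fast libraries had 90.1, 90.9 and 88.7 CPM, against 66.7, 65.0 and 67.2 CPM in the parental libraries. In batch 2 the fast libraries had 100.1, 96.5 and 98.4 CPM and the parental libraries 71.4, 74.4 and 75.4 CPM. The populations did not overlap in either batch. PLAT rose by 0.43 ± 0.03 SE in log2 over both batches (edgeR adjusted p = 1.06e-15), with 0.44 ± 0.04 SE in batch 1 and 0.41 ± 0.04 SE in batch 2. The difference between batches was -0.02 ± 0.05 SE and not called (edgeR adjusted p = 0.871). Its 20 nearest tested genes had a median log2 fold change of 0.07.

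PLAUR (ENSG00000011422, chromosome 19), the urokinase receptor, is a membrane-anchored protein whose promoter with an AP-1 match is shown above. In batch 1 it stood at 255, 248 and 262 CPM in the fast libraries, against 158, 168 and 167 CPM in the parental libraries. Batch 2 fast libraries had 219.8, 229.8 and 236 CPM, against 182, 177 and 169 CPM in the parental libraries. Fast libraries were the higher ones throughout, but the populations stood closer together in batch 2. The log2 fold change was 0.50 ± 0.04 SE over both batches (edgeR adjusted p = 1.40e-09), 0.63 ± 0.03 SE in batch 1 and 0.38 ± 0.03 SE in batch 2, a difference of -0.26 ± 0.05 SE (edgeR adjusted p = 0.000397). PLAU and PLAUR, ligand and receptor, thus differed between batches in opposite senses. PLAU counts per PLAUR count were 1.64 ± 0.089 in fast and 1.57 ± 0.073 in parental cells of batch 1, and 1.85 ± 0.047 in fast and 1.30 ± 0.017 in parental cells of batch 2 (SD, n = 3 each). This ratio does not depend on library scaling. Its ranges overlapped between populations in batch 1 and did not in batch 2. Of the 20 tested genes nearest to PLAUR, 13 were called higher and 1 lower, with a median log2 fold change of 0.28. The part of this in the change of PLAUR was not tested.

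**Figure D2:**
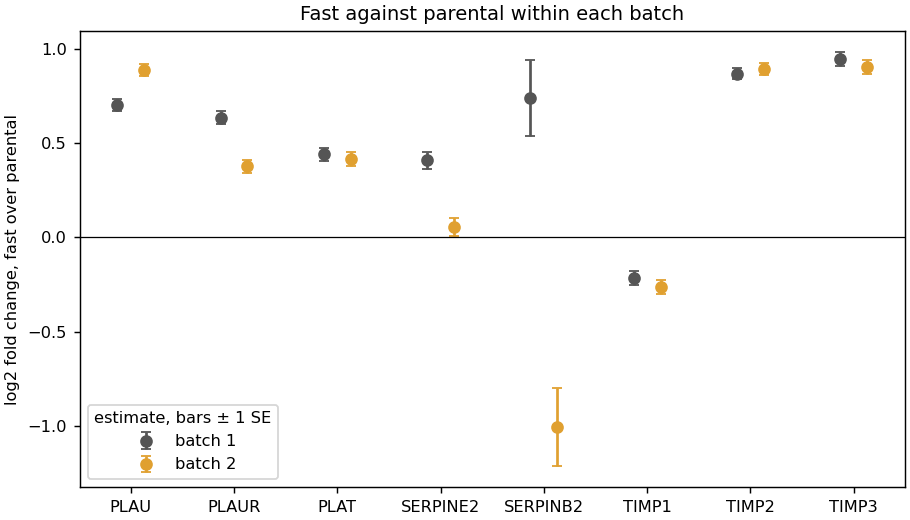
Log2 fold change of fast over parental cells (y axis) for each of the 8 genes, in batch 1 and batch 2, with bars of ± 1 SE from edgeR. TIMP3 and TIMP2 stand highest in both batches, PLAU is at 0.70 in batch 1 and 0.89 in batch 2, TIMP1 is below 0 in both, and SERPINB2 is at 0.74 in batch 1 and -1.005 in batch 2.

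SERPINE2 (ENSG00000135919, chromosome 2) encodes protease nexin-1, a serpin that inhibits thrombin, urokinase and tissue-type activator. Batch 1 fast libraries had 71.2, 69.1 and 73.1 CPM, against 58.3, 52.7 and 49.8 CPM in the parental libraries. In batch 2 it stood at 49.9, 53.2 and 54.1 CPM in the fast libraries, against 50.3, 50.6 and 50.5 CPM in the parental libraries. The populations were apart in batch 1 and overlapped in batch 2. SERPINE2 rose by 0.41 ± 0.05 SE in log2 in batch 1 (edgeR adjusted p = 1.89e-10), and its change in batch 2 was 0.05 ± 0.05 SE (edgeR adjusted p = 0.324). The difference between batches was called at -0.35 ± 0.06 SE (edgeR adjusted p = 0.000247), and the value over both batches was 0.23 ± 0.06 SE (edgeR adjusted p = 0.00355). The mean of fast cells was 71.1 CPM in batch 1 and 52.4 CPM in batch 2, and that of parental cells 53.6 and 50.4 CPM. The 20 tested genes nearest to SERPINE2 had a median log2 fold change of 0.16, with 8 called higher and 5 lower.

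SERPINB2 (ENSG00000197632, chromosome 18) encodes PAI-2, a serpin that inhibits urokinase and is largely kept inside the cell. It was the weakest of the 8 genes, with 44 to 171 counts in a library. In batch 1 it stood at 2.34, 2.55 and 1.97 CPM in the fast libraries, against 1.26, 1.43 and 1.43 CPM in the parental libraries. Batch 2 fast libraries had 0.586, 1.09 and 1.13 CPM, against 2.18, 1.91 and 1.54 CPM in the parental libraries. The populations did not overlap in either batch, and their order was opposite. SERPINB2 rose by 0.74 ± 0.20 SE in log2 in batch 1 (edgeR adjusted p = 0.00159) and fell by 1.005 ± 0.21 SE in batch 2 (edgeR adjusted p = 5.74e-05). The difference between batches was -1.74 ± 0.29 SE (edgeR adjusted p = 4.97e-05), and over both batches the change was -0.10 ± 0.31 SE and not called (edgeR adjusted p = 0.800). Of all tested genes, 88, or 0.388%, were called in both batches with opposite signs, and 46% were called in both with the same sign. Both populations moved between the batches, fast cells having 2.29 CPM in batch 1 and 0.935 CPM in batch 2, and parental cells 1.37 and 1.87 CPM. The lowest library, fast batch 2 replicate 1, had 44 counts, with a 95% exact Poisson interval of 0.426 to 0.786 CPM that covers counting error only. The serpin SERPINB10 shares 547 exon bases with SERPINB2 on the same strand. It had 250 counts in all fast and 261 in all parental libraries. These were 31.6% to 47.7% of the SERPINB2 counts of a fast library and 34.8% to 51.8% of those of a parental library. Reads of this pair thus cannot be fully told apart either. Over both batches, the 20 tested genes nearest to SERPINB2 had a median log2 fold change of -0.34, with 11 called lower and 1 higher.

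**Figure D3:**
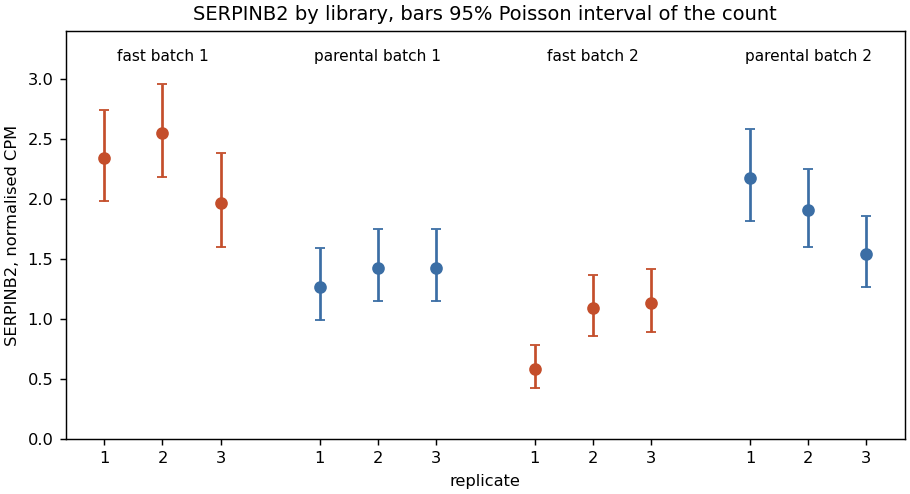
SERPINB2 level in normalised CPM (y axis, from 0) in each of the 12 libraries, by population and batch, with bars of the exact 95% Poisson interval of the count. Fast libraries of batch 1 lie at 1.97 to 2.55 CPM and those of batch 2 at 0.586 to 1.13 CPM, on opposite sides of the parental libraries of their batch.

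Across the batches, 4 of the 8 genes (PLAU, PLAUR, SERPINE2 and SERPINB2) had a called difference of effect, against 5.4% of all tested genes (1.75% higher, 3.65% lower in batch 2) and 7.37% of the 16190 genes above the 1 CPM mean. Scaling moved that split over all genes, with 396 higher and 827 lower under TMM and 575 and 522 under DESeq2's size factors. TIMP1, TIMP2, TIMP3 and PLAT were not called, with differences of -0.05 to 0.03 and SEs of 0.04 to 0.05. A batch cannot be told apart here from a biological replicate.

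TIMP2 (ENSG00000035862, chromosome 17) encodes an inhibitor that also takes part in the activation of MMP2 by the membrane protease MMP14. Batch 1 fast libraries had 522, 537 and 536 CPM, against 302, 277 and 294 CPM in the parental libraries. In batch 2 it stood at 539, 529 and 518 CPM in the fast libraries, against 282, 286 and 286 CPM in the parental libraries. All 6 fast libraries lay above all 6 parental ones. TIMP2 rose by 0.88 ± 0.02 SE in log2, or 1.84-fold (edgeR adjusted p = 1.41e-25), with 0.87 and 0.89 in the 2 batches. CEP295NL on the same strand and the antisense gene AC022966.1 share 198 and 367 exon bases with TIMP2. CEP295NL had 8.49 to 10.5 counts per 100 TIMP2 counts in the fast libraries and 10.5 to 11.7 in the parental libraries. Its log2 fold change was 0.71, and its reads and those of TIMP2 cannot be fully told apart. AC022966.1 had 18.6 to 19.0 counts per 100 TIMP2 counts in the fast libraries and 18.8 to 19.6 in the parental libraries, so its reads and those of TIMP2 cannot be told apart. The 20 nearest tested genes, AC022966.1 among them, had a median log2 fold change of 0.11.

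TIMP3 (ENSG00000100234, chromosome 22), the TIMP that binds to the extracellular matrix and inhibits ADAM17 as well as matrix metalloproteinases, had the largest change of the 8 over both batches. In batch 1 it stood at 222, 216 and 239 CPM in the fast libraries, against 120.05, 111 and 121 CPM in the parental libraries. Batch 2 fast libraries had 205, 193 and 189.7 CPM, against 104, 104 and 107 CPM in the parental libraries. Again the populations did not overlap in either batch. TIMP3 rose by 0.92 ± 0.03 SE in log2, or 1.90-fold (edgeR adjusted p = 5.19e-24), with 0.94 ± 0.04 SE in batch 1 and 0.90 ± 0.04 SE in batch 2. Among genes with a mean of at least 1 CPM, 3.52% rose more. TIMP3 lies within SYN3, on the other strand, which had 0 counts in all 12 libraries, and its 20 nearest tested genes had a median log2 fold change of 0.13.

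TIMP1 (ENSG00000102265, chromosome X), an inhibitor of most secreted metalloproteinases, was the 1 gene of the 8 called lower over both batches. Batch 1 fast libraries had 119, 121 and 124 CPM, against 143, 135 and 146 CPM in the parental libraries. In batch 2 it stood at 121, 109.5 and 122 CPM in the fast libraries, against 143, 141 and 139 CPM in the parental libraries. All 6 fast libraries lay below all 6 parental ones, by a small margin. TIMP1 fell by 0.24 ± 0.03 SE in log2 (edgeR adjusted p = 6.26e-09), with -0.22 ± 0.04 SE in batch 1 and -0.26 ± 0.04 SE in batch 2. On the X chromosome 69.2% of 751 tested genes were called lower in fast cells, against 30.4% of 20800 tested genes on the other chromosomes, and the median log2 fold change of X-linked genes was -0.58. The 20 tested genes nearest to TIMP1 had a median of -0.43, with 14 called lower. TIMP1 thus fell less than these medians, and the part of its location in the change was not tested.

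The makeup of the TIMP transcripts changed with these opposite moves. TIMP2 counts per TIMP1 count were 4.37 ± 0.066 in fast and 2.06 ± 0.052 in parental cells of batch 1, and 4.51 ± 0.30 in fast and 2.02 ± 0.043 in parental cells of batch 2 (SD, n = 3 each). TIMP3 counts per TIMP1 count were 1.85 ± 0.068 in fast and 0.830 ± 0.011 in parental cells of batch 1, and 1.67 ± 0.11 in fast and 0.746 ± 0.023 in parental cells of batch 2. Neither ratio overlapped between populations. TIMP2 counts per TIMP3 count, 2.53 ± 0.20 in fast and 2.60 ± 0.13 in parental cells over both batches (SD, n = 6 each), overlapped.

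Per length of their exons, the 8 genes ranged widely. Levels here are CPM per kb of the merged exons of GENCODE release 29, an annotation of another build than the counts, so they are approximate. PLAU came first in fast cells at 142 ± 2.91 CPM per kb, followed by TIMP2 at 94.1 ± 1.56, TIMP1 at 77.5 ± 3.34, PLAUR at 54.2 ± 3.58 and TIMP3 at 45.8 ± 4.01 CPM per kb (SD, n = 6). PLAT at 14.2 ± 0.73, SERPINE2 at 6.95 ± 1.17 and SERPINB2 at 0.586 ± 0.29 CPM per kb came last. In parental cells TIMP1 came first at 91.5 ± 2.48 CPM per kb, before PLAU at 82.4 ± 5.69, TIMP2 at 51.1 ± 1.59, PLAUR at 38.2 ± 1.90 and TIMP3 at 24.1 ± 1.66 CPM per kb. PLAT at 10.6 ± 0.66, SERPINE2 at 5.85 ± 0.36 and SERPINB2 at 0.591 ± 0.13 CPM per kb again came last. Of the neighbours in these orders, the libraries of PLAUR and TIMP3 overlapped in fast cells and those of TIMP1 and PLAU in parental cells, and no others did. Within a batch, PLAUR and TIMP3 did not overlap in fast cells, and TIMP1 and PLAU overlapped in parental cells of batch 1.

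**Figure D4:**
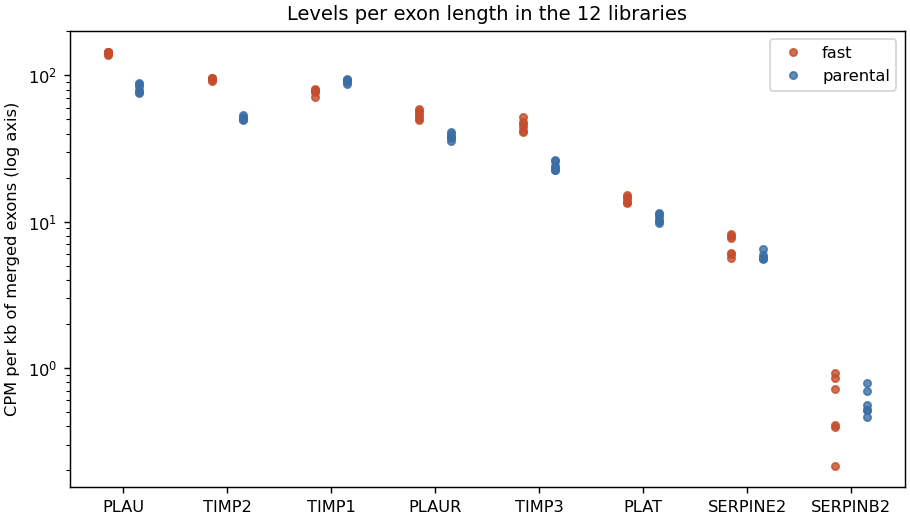
Levels of the 8 genes in CPM per kb of merged exons (y axis, log scale) in the 6 fast and 6 parental libraries, ordered by the fast mean. PLAU leads in fast cells at 142 CPM per kb, and TIMP1 leads in parental cells at 91.5 CPM per kb.

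Other genes of the system were counted in 5 lists of 66 genes, of which 50 could be tested. Of these 50, 26 were higher and 13 lower in fast cells and 11 were not called. Over all tested genes 31.9% were higher and 31.5% lower, and of genes with a mean of at least 1 CPM 75.1% were called. The lists were chosen with earlier results of these data known. Plasminogen itself, PLG, had 0 counts in fast and 2 in parental libraries. In the list of other inhibitors, 6 were higher and 1 lower of 9 tested, with a median log2 fold change of 0.35. SERPINB9, which inhibits granzyme B, rose to 28.4 ± 2.77 CPM in fast cells, against 13.4 ± 2.45 CPM in parental cells (1.10 ± 0.05 SE in log2). SERPINA1, the inhibitor of neutrophil elastase, averaged 0.661 ± 0.38 CPM in fast libraries and 1.55 ± 0.71 CPM in parental libraries and fell by 1.24 ± 0.18 SE in log2. SERPINA5, A2M and HRG had 0 counts in fast libraries and 4, 23 and 5 in parental libraries, and CPB2 had 27 and 13.

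TIMP4 was singled out after its values were seen. TIMP4, the fourth TIMP, was higher in fast cells at 2.50 ± 0.38 CPM, against 1.68 ± 0.66 CPM in parental cells (0.63 ± 0.13 SE in log2), with 0.31 in batch 1, which was not called (edgeR adjusted p = 0.105), and 0.99 in batch 2. The difference of these was not called (edgeR adjusted p = 0.0941).

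Of 6 tested plasminogen receptors and binding proteins, 1 was higher and 2 were lower, and of 11 tested clearance receptors and PLAUR partners, 6 were higher and 4 lower. LRP1, the receptor that takes up complexes of activators with their inhibitors, fell to 11.2 ± 5.08 CPM in fast cells, against 42.4 ± 11.6 CPM in parental cells (-1.99 ± 0.08 SE in log2). Its change was -1.74 in batch 1 and -2.28 in batch 2, a called difference (edgeR adjusted p = 1.73e-05). ITGB3, the beta chain of an integrin that binds vitronectin, rose by 2.07 ± 0.07 SE in log2. It averaged 16.0 ± 4.41 CPM in fast libraries and 3.77 ± 0.82 CPM in parental libraries. The count table has more than 1 row of this symbol. The row with the current gene ID was used, and no other is reported here. The formyl peptide receptors FPR1 and FPR2 had 0 and 2 counts in fast libraries and 0 and 0 in parental libraries.

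Of 9 tested genes in a list of other proteases and Kunitz inhibitors, 6 were higher and 2 lower, all by less than 0.54 in log2. The list joins serine proteases and Kunitz inhibitors with the cysteine cathepsins CTSB and CTSL, both among the 6, at 0.28 ± 0.03 SE and 0.11 ± 0.04 SE in log2. HPN, TMPRSS2, KLK6, KLK10 and PRSS8 did not pass the filter on low counts. Of 15 tested metalloproteinases that TIMPs inhibit, 7 were higher and 4 lower. MMP16 and ADAM12 rose by 2.20 ± 0.08 SE and 1.26 ± 0.11 SE in log2. MMP1, the interstitial collagenase, fell by 2.38 ± 0.35 SE in log2 but was not called on sums of the 3 libraries (edgeR adjusted p = 0.303). Its change was -1.48 in batch 1 and -3.60 in batch 2. MMP14, picked out after its values were seen as the partner of TIMP2, averaged 731 ± 101 CPM in fast libraries and 638 ± 73.2 CPM in parental libraries, a rise of 0.19 ± 0.02 SE that was lost without a batch term (edgeR adjusted p = 0.106). MMP2, named above with TIMP2 and MMP14, was likewise picked out after its values were seen. It averaged 0.39 ± 0.28 CPM in fast libraries and 1.05 ± 0.51 CPM in parental libraries. Its log2 fold change was -1.54 ± 0.24 SE over both batches, with -1.20 in batch 1 and -2.10 in batch 2, all called. MMP7, MMP17, ADAMTS4 and ADAMTS5 did not pass the filter.

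**Figure D5:**
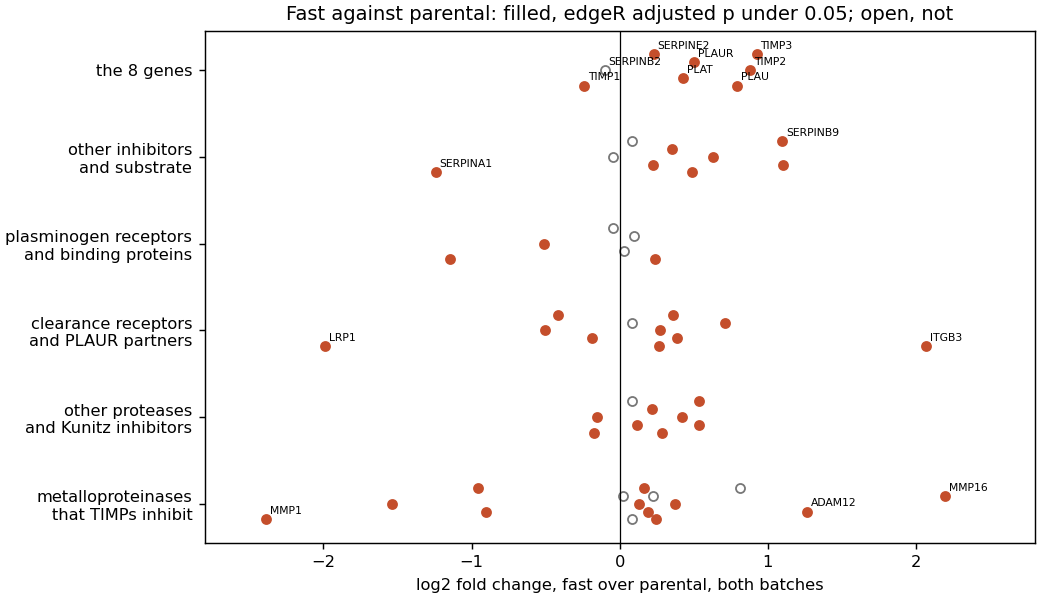
Log2 fold change of fast over parental cells over both batches (x axis) for the 8 genes and the tested members of 5 lists of related genes (rows), filled where edgeR's adjusted p was under 0.05. List genes are labelled where called, changed by at least 1 in log2 and at a mean of at least 1 CPM. The 8 genes lie between -0.24 and 0.92, while LRP1 and MMP1 lie near or below -2 and ITGB3 and MMP16 above 2.

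Genes whose log2 CPM most closely followed each of the 7 stronger genes over the 12 libraries were sought by Pearson correlation. Candidates were 11251 others with a mean of at least 5 CPM, after symbols of clone-name form were dropped. The pattern used for this also dropped symbols starting with ABC. These correlations describe libraries that fall into 2 populations, so that 93 to 2216 genes had a Pearson r above 0.9 with a given gene. PLAU was followed most closely by MXRA8 and TGFBI (r of 0.998 and 0.997), TIMP2 by PPP4R1 and SF3B3 (0.999 and 0.998), and TIMP3 by PCDHGB2 and MGLL (0.997 and 0.996). PCDHGB2 shares exons with other protocadherins, so its reads cannot be fully told apart from theirs. PLAUR was followed by EWSR1 and FXR2 (0.992 and 0.991), PLAT by FAM107B and PMPCA (0.994 and 0.993), and TIMP1 by SEPT6, also X-linked, and TASP1 (both 0.973). SERPINE2 was followed by BEST1 and FTH1 (0.974 and 0.967), which share 1267 exon bases and may share reads.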

How the data were processed

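RNA was sequenced in 12 libraries of MDA-MB-231 cells. The authors deposited raw counts of reads per gene, not normalized, for 60234 genes. The submitters' processing notes name Trimmomatic 0.32, STAR 2.3.0e and featureCounts 1.4.4 and the builds hg19 and GRCh37. The sources used here do not give the settings for strand and for reads with several matches. Groups were taken from the sample titles.

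The whole table was fitted with edgeR 4.0.16 in R 4.3.3, using TMM scaling, its default filter (minimum count 10, minimum total 15) and a robust quasi-likelihood fit. Batch was an additive term for the effect over both batches, and effects within each batch, with their difference, came from a fit of 4 group means. P-values were adjusted by Benjamini-Hochberg over 22668 genes, with a threshold of 0.05. The SE is the absolute log2 fold change divided by the square root of F. All log2 fold changes are fast over parental. The steps were tested on simulated counts.

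DESeq2 1.42.0 and limma-voom (limma 3.58.1) were alternatives. Chromosomes, gene order and exon lengths came from GENCODE release 29 (GRCh38) by gene ID. List genes were named where called, changed by at least 1 in log2 and at a mean of at least 1 CPM, or where they were too weak to test. TIMP4, MMP2, MMP14, CTSB and CTSL were named outside this rule. The members and lists were chosen with earlier results of these data known. Of the 95 list and marker entries, 93 were matched by symbol and 1 by gene ID, and PECAM1 was unmatched. Intervals of counts take in no error but that of counting, as the reads carry no molecular identifiers known from the labels. Totals were 53267145 to 75944907 counts per library. Some genes of the lists are not reported here.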

Additional observations from a re-analysis of the deposited data

Results flagged for a closer look

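The effect of fast against parental cells differed between the 2 batches, by edgeR's test of the difference itself, for 4 of the 8 genes. The difference, batch 2 minus batch 1 in log2, was 0.19 for PLAU, -0.26 for PLAUR, -0.35 for SERPINE2 and -1.74 for SERPINB2. For SERPINB2 the populations were on opposite sides in the 2 batches in all libraries, at 44 to 171 counts each. For SERPINE2 the difference lay mainly in fast cells (71.1 CPM in batch 1 and 52.4 CPM in batch 2), and for PLAU mainly in parental cells (258 and 228 CPM). No group has more than 3 libraries, so single libraries were not screened for outlying values.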

How the results depend on the processing

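Under all alternatives, each of the 8 genes kept its direction and its side of the threshold within batch 1 and within batch 2 (152 values each). Over both batches 158 of 160 values did, the exceptions being SERPINB2, not called, which turned to 0.095 without fast batch 2 replicate 1 and to 0.04 without parental batch 2 replicate 1 (range -0.22 to 0.095 with 1 library left out). The differences between batches of PLAU, PLAUR, SERPINE2 and SERPINB2 were called under all 18 alternatives. Differences that were not called lay near 0 and turned sign for PLAT (0.0058 with DESeq2's size factors in edgeR, 0.037 with no filter on low counts, 0.011 when genes under a mean of 1 CPM were dropped, 0.0055 with DESeq2), TIMP1 (0.017 with no filter) and TIMP3 (0.020 with no filter). The cause of these turns was not tested. With 1 library left out they ranged from -0.043 to 0.045 for PLAT, -0.068 to 0.059 for TIMP1 and -0.070 to 0.040 for TIMP3. Counts of called genes stayed within 1.5 times the main counts under every alternative. For the difference between batches the split was 396 higher and 827 lower, against 575 and 522 with DESeq2's size factors, 966 and 411 with no filter, 740 and 576 with the stricter filter and 800 and 687 with DESeq2. DESeq2's size factors moved the median of all genes by 0.03 or less. With a replicate block, 13966 genes were called over both batches against 14374, and no call of the 8 genes changed. The replicate numbers of the sample titles, which the block uses, did not pair the libraries, since deviations of same-numbered libraries correlated at -0.022 to 0.033. The count table numbers some batch 1 libraries otherwise, so replicate 2 of fast and parental cells in batch 1 share a number in the titles alone, and no block by the table's numbers was fitted. On sums of the 3 libraries, which leave 4 samples, the 7 calls over both batches were kept, and within-batch tests could not be made. Alternatives for several other named genes were added after seeing the data. Depth limits SERPINB2 most.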
